A study of Homo sapiens with 5 samples.

Results

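The genes described here are 44 macrophage surface and signalling genes, of 27139 genes in the deposited tables of RNA from human embryonic stem cell cultures taken 30 days after differentiation began. They are the scavenger, Fc, growth factor and inhibitory receptors by which tissue macrophages are recognised, the adaptors and cytoskeletal proteins behind those receptors, and a few transcription factors of blood cells. All 44 were found in both tables by symbol. They were selected on their higher level in the YAPi_Activin cultures than in the GiWi cultures, so every value across that contrast is given as a description and without a test.

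Both groups were made from H1, an established human embryonic stem cell line with an unmodified genome, grown in TeSR medium. YAPi_Activin cells (3 libraries) received a YAP inhibitor and Activin, which signals through TGF-beta family receptors, for 24 h. GiWi cells (2 libraries) received a GSK3 inhibitor and an inhibitor of Wnt/β-catenin signalling for 48 h, the usual small-molecule route to heart muscle. Agents and treatment time differed together and cannot be told apart, all libraries came from 1 cell line, and no sorting step is given, so each library is RNA of a whole culture. In such bulk RNA, fewer cells of a type and less RNA per cell cannot be told apart. The labels do not state whether libraries of a group are separate cultures, and p-values here cover the spread among the libraries alone, which could be technical.

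Macrophages are phagocytes of the blood lineage that settle in most organs, the heart among them, where they clear debris and dying cells. Their survival depends on CSF1R, the receptor of the growth factors CSF1 and IL34, and their identity on PU.1, the transcription factor encoded by SPI1, which binds purine-rich boxes with a GAGGAA core near myeloid genes. Activating surface receptors such as TREM2, FCGR1A and FCGR3A have little signalling tail of their own and pass their signal through the small adaptors TYROBP and FCER1G to the kinase SYK, while inhibitory receptors of the LILRB and SIGLEC families recruit phosphatases that dampen it.

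The promoters of the 3 genes that mark these cells are printed to show that purine box. Sequences are RefSeq windows on GRCh38.p14, each running 5′ to 3′ on the gene's own strand from 250 bases before to 50 bases after an annotated start, with GAGGAA, or TTCCTC where the box lies on the other strand, in capitals.
CD163, minus strand, chr12:7503728-7504027: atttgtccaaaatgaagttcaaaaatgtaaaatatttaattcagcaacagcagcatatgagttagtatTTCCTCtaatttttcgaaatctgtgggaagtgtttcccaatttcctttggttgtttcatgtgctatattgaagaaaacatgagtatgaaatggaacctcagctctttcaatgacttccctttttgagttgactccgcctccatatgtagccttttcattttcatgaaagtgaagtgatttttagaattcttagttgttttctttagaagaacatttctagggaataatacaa
CSF1R, minus strand, chr5:150086505-150086804: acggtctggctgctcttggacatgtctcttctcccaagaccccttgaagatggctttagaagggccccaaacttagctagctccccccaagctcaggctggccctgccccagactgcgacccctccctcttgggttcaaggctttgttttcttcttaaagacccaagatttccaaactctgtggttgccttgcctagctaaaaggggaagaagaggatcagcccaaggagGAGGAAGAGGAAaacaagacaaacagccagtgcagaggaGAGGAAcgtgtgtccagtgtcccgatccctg
TYROBP, minus strand, chr19:35908246-35908545: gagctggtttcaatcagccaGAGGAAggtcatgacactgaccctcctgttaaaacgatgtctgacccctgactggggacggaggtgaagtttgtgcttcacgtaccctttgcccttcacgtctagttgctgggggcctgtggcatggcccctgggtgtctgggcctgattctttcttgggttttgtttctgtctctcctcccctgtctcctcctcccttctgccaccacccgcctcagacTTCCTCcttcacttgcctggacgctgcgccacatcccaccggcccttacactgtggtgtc
In CSF1R, boxes started 20 and 14 bases before the annotated start and 19 bases after it, the first and second back to back. TYROBP held a box 230 bases before its start and another, on the opposite strand, 10 bases before it, and CD163 held 1 on the opposite strand, 182 bases before its start. A second annotated start of CSF1R, at chr5:150113316-150113615, had no such box. Of the 44 genes, 34 had a RefSeq window, 52 windows in all, and SPI1, NCKAP1L, MRC1, FOLR2, SIGLEC1, MSR1, LYVE1, GPR34, CD84 and CLEC7A had none. GAGGAA on either strand was present in 30 of the 52 windows (57.7%), against 9781 of 35116 RefSeq windows of the same length (27.9%). By gene, 25 of the 34 held it in at least 1 window, a count with no background share by gene here. Some genes had several windows, and some of those overlapped, so the 52 are not independent. The longer form GAGGAAGT, which contains the shorter one, was present in 7 of the 52 windows (13.5%) and in 2.59% of all windows. A match of letters is a description and not a binding site.

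The libraries held 43661243 to 48904372 exon counts each, and levels below are TMM-scaled CPM (counts relative to library size, corrected by edgeR's TMM factors) unless the authors' FPKM, which also divides by transcript length, is named. Replicate 3 of YAPi_Activin stood apart from replicates 1 and 2: the chi-square per degree of freedom between their counts was 53.5 and 48.4 with replicate 3, against 2.13 between replicates 1 and 2 and 5.89 between the GiWi pair, where sampling noise alone gives about 1. For this reason values of the 3 YAPi_Activin libraries are given one by one. Among the 17634 genes tested with edgeR's quasi-likelihood test, 30.2% were higher and 26.9% lower in YAPi_Activin at an adjusted p under 0.05. All 44 selected genes were among those called higher, a count that the selection fixed.

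The macrophage genes together were read in every YAPi_Activin library, and most of them, RUNX1 aside, were close to absent in GiWi. Their summed level was 813, 829 and 426 CPM in YAPi_Activin replicates 1, 2 and 3, against 74.3 and 77.7 CPM in the GiWi libraries. The transcription factor gene RUNX1 alone made up 78.2% and 78.5% of the GiWi sums. Without it the sums were 742, 756 and 331 CPM in YAPi_Activin, against 16.2 and 16.7 CPM in GiWi, a 37.0-fold difference of the means (45.5-fold without YAPi_Activin replicate 3). Every YAPi_Activin library lay above both GiWi libraries for all 44 genes, as it did for 38.7% of all genes tested. The order held with TMM, RLE and library-size scaling and in the authors' FPKM.

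**Figure D1:**
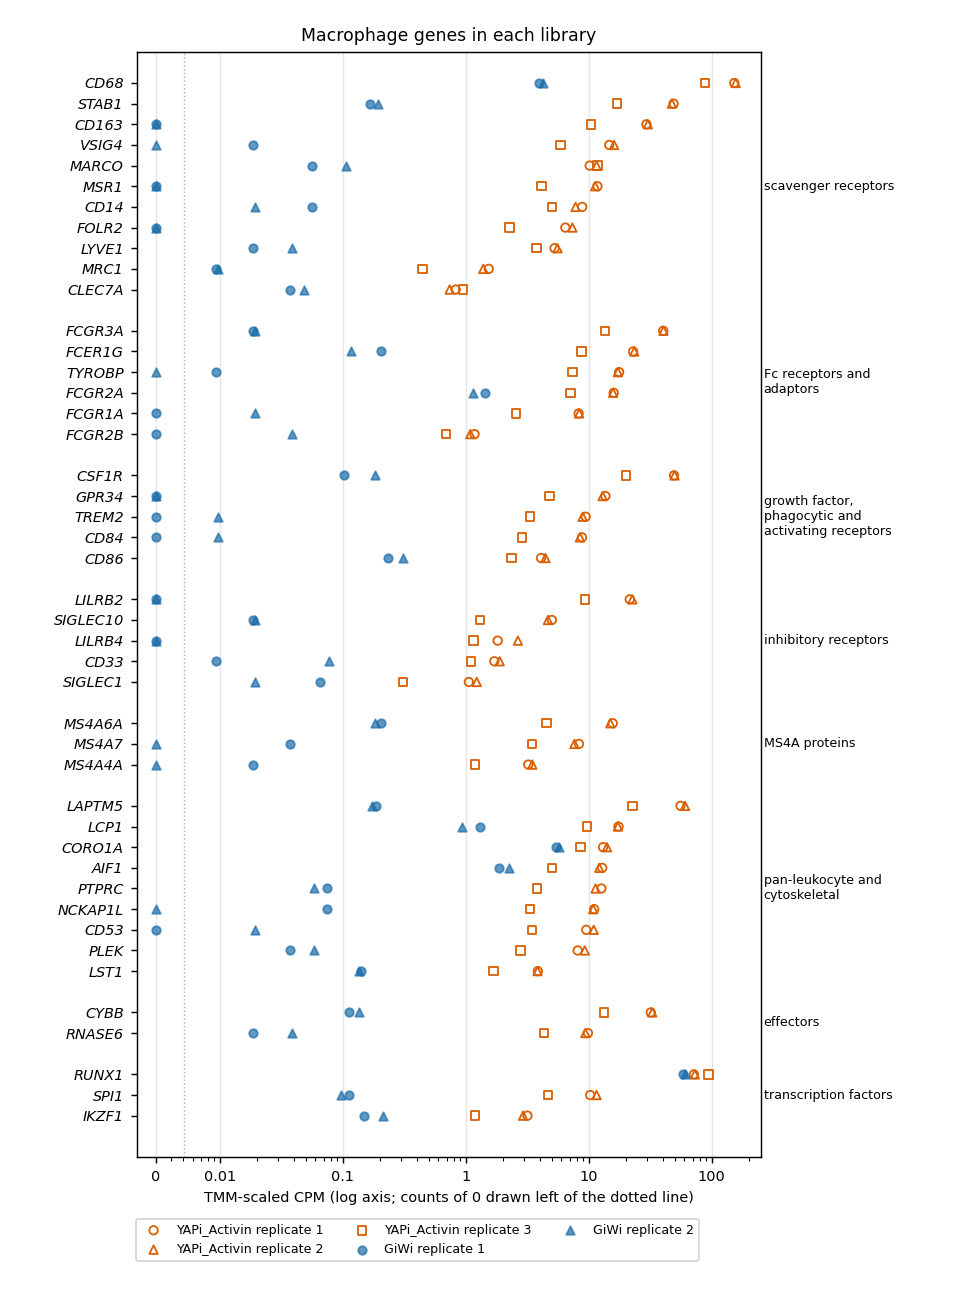
TMM-scaled CPM of the 44 macrophage genes (log axis) in each library, grouped by role and ordered by mean level within a role, with YAPi_Activin libraries as open orange symbols and GiWi libraries as filled blue symbols. The open symbols lie right of the filled ones for every gene, most squares (YAPi_Activin replicate 3) lie left of the circles and triangles, and RUNX1 is the gene with the smallest gap between the groups.

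How near GiWi came to nothing differed among the genes. CD163, FOLR2, MSR1, GPR34, LILRB2 and LILRB4 had exactly 0 counts in both GiWi libraries, and TYROBP, TREM2 and CD84 had 0.5 counts over both (the deposited counts come in steps of 0.5). A count of 0 over both libraries allows a level of up to 0.0285 CPM, the level of 3 counts, and covers counting error only. A further 11 genes had 1 to 3 GiWi counts. At the other end, CD68, FCGR2A, AIF1, CORO1A, LCP1 and RUNX1 had at least 100 GiWi counts. The median of the genes' mean FPKM was 4.00 in YAPi_Activin and 0.0123 in GiWi, and 35 of the 44 averaged at least 1 FPKM in YAPi_Activin, 6 of them at least 10 FPKM.

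Asked another way, 118 of the 27139 genes (0.435%) had at most 2 counts over both GiWi libraries and at least 1 CPM in every YAPi_Activin library. Of the macrophage genes, 16 did so, which is 36.4% of the 44 and 13.6% of the 118. The 44 were selected on this same contrast, so the selection itself raised their share, which is a description only. Among the genes with at most 2 GiWi counts outside the 44, those with the highest mean FPKM in YAPi_Activin were C1QB (39.5 FPKM), SCGB1A1 (27.4 FPKM), HLA-DRA (14 FPKM), ITGB2 (8.75 FPKM), OTX2 (6.92 FPKM), MIR6887 (5.85 FPKM), CHP2 (5.76 FPKM), RAX (4.76 FPKM), BTNL3 (4.50 FPKM) and REG3A (4.47 FPKM). C1QB, HLA-DRA and ITGB2 encode a complement chain, an antigen-presenting chain and an integrin chain of macrophages, whereas OTX2 and RAX encode homeobox factors of forebrain and eye. SCGB1A1, a secretory protein gene of airway epithelium, was carried mostly by replicate 3, at 0.623, 0.559 and 81.0 FPKM in YAPi_Activin replicates 1, 2 and 3, against 0 FPKM in both GiWi libraries. All the others named here were lower in replicate 3 than in replicates 1 and 2. Their log2 ratios ran from -0.13 for MIR6887 to -4.08 for REG3A, with CHP2 at -1.49 and BTNL3 at -1.26. The likeness by which these genes were picked is only the near absence in GiWi, over 5 libraries.

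The scavenger and pattern receptors bind debris, modified lipoproteins and microbial surfaces. CD163, the receptor that takes up haemoglobin bound to haptoglobin (hg19 chr12:7623412-7656414, minus strand), had 29.5, 30.3 and 10.5 CPM in YAPi_Activin, against 0 CPM in both GiWi libraries. Set against the level that 3 GiWi counts would give, CD163 was at least 838-fold higher than GiWi. CD68, a sialomucin of lysosomes and endosomes with the highest FPKM of all 44 genes (a YAPi_Activin mean of 56.8 FPKM), had 153, 157 and 88.6 CPM in YAPi_Activin, against 3.97 and 4.26 CPM in GiWi, and was 32.6-fold higher. Its level in GiWi was well above the floor, and the groups did not overlap. VSIG4, a complement receptor of tissue-resident macrophages, had 14.7, 16.1 and 5.92 CPM in YAPi_Activin, against 0.0187 and 0 CPM in GiWi; the ratio was 1310 with a 95% counting interval of 234 to 51700, because GiWi held 1 count. MARCO, a collagen-like receptor for bacteria and particles, had 10.2, 11.6 and 11.8 CPM in YAPi_Activin, against 0.056 and 0.106 CPM in GiWi, and was 138-fold higher, with 3 YAPi_Activin libraries that nearly coincided.

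The other scavenger receptors spanned a wide range. STAB1, which clears modified lipoproteins and apoptotic cells, was 214-fold higher at 49.1, 47.6 and 17.0 CPM in YAPi_Activin, against 0.168 and 0.193 CPM in GiWi. MSR1, the class A scavenger receptor, and FOLR2, a folate receptor of tissue-resident macrophages, were absent from the GiWi counts and at least 325-fold and 192-fold higher. CD14, the lipopolysaccharide co-receptor of monocytes and macrophages, was 193-fold higher, and LYVE1, a hyaluronan receptor shared by resident macrophages and lymphatic endothelium, had a ratio of 172 (counting interval 58.7 to 838). MRC1, the mannose receptor, and CLEC7A, the beta-glucan receptor, were the least expressed of this role per transcript length, with mean levels of 0.172 and 0.254 FPKM in YAPi_Activin, against 0.002 and 0.013 FPKM in GiWi.

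Fc receptors bind the constant part of antibodies and lead to phagocytosis. The adaptor gene TYROBP (hg19 chr19:36395303-36399211, minus strand), whose promoter window is printed above, had 17.7, 17.3 and 7.38 CPM in YAPi_Activin, against 0.00933 and 0 CPM in GiWi, at least 504-fold higher. The other adaptor gene, FCER1G, had 23.0, 23.5 and 8.74 CPM in YAPi_Activin, against 0.205 and 0.116 CPM in GiWi, and was 116-fold higher. Per transcript length both adaptors stood above every receptor gene of this role, with YAPi_Activin means of 24.9 FPKM for FCER1G and 20 FPKM for TYROBP. FCGR3A, the low-affinity receptor CD16, had 40.4, 40.6 and 13.6 CPM in YAPi_Activin, against 0.0187 and 0.0193 CPM in GiWi, a ratio of 1690 (counting interval 468 to 14000). FCGR1A, the high-affinity receptor CD64, had a ratio of 689 (counting interval 123 to 27200), and the activating FCGR2A was 10.3-fold higher at 16.0, 15.8 and 7.13 CPM in YAPi_Activin, against 1.43 and 1.14 CPM in GiWi. FCGR2B, the inhibitory member of the family, was the lowest of this role at a mean of 0.369 FPKM in YAPi_Activin, against 0.008 FPKM in GiWi.

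The receptors for growth factors, lipids and costimulation gave the second marker. CSF1R (hg19 chr5:149432854-149492935, minus strand) had 49.5, 50 and 20.1 CPM in YAPi_Activin, against 0.103 and 0.184 CPM in GiWi, and was 285-fold higher. TREM2, a lipid-sensing receptor that signals through TYROBP, had 9.46, 8.94 and 3.34 CPM in YAPi_Activin, against 0 and 0.00966 CPM in GiWi, at least 259-fold higher. GPR34, a receptor for lysophosphatidylserine, had 13.7, 13 and 4.80 CPM in YAPi_Activin, against 0 CPM in both GiWi libraries, at least 375-fold higher. In all 3 genes replicate 3 was the low YAPi_Activin library and still stood far above GiWi. CD84, a SLAM-family adhesion receptor of leukocytes, was at least 241-fold higher, and CD86, a costimulatory ligand for T cells, was 13.6-fold higher at 4.10, 4.45 and 2.36 CPM in YAPi_Activin, against 0.233 and 0.309 CPM in GiWi.

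Inhibitory receptors were led by LILRB2, which binds MHC class I molecules. It had 21.6, 22.7 and 9.37 CPM in YAPi_Activin, against 0 CPM in both GiWi libraries, at least 637-fold higher, and a YAPi_Activin mean of 6.69 FPKM. CD33, a sialic acid binding lectin of myeloid cells, had 1.71, 1.89 and 1.10 CPM in YAPi_Activin, against 0.00933 and 0.0773 CPM in GiWi, and was 37.0-fold higher. SIGLEC10, a lectin of the same family that binds CD24, had 5.02, 4.67 and 1.31 CPM in YAPi_Activin, against 0.0187 and 0.0193 CPM in GiWi, a ratio of 198 (counting interval 54.4 to 1640). LILRB4 was at least 66.3-fold higher and was the gene on which replicates 1 and 2 differed most (1.82 and 2.66 CPM). SIGLEC1, sialoadhesin, had the lowest mean FPKM of the 44 genes, 0.102 FPKM in YAPi_Activin against 0.0055 FPKM in GiWi.

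Set among their relatives, these receptors were neither the only expressed ones nor always the highest. Of 11 LILR genes in the table, LILRB2 had the highest mean FPKM in YAPi_Activin and LILRB4 the fifth. LILRA3, a soluble member, had 4.08, 4.17 and 2.67 CPM in YAPi_Activin, against 0 CPM in both GiWi libraries, at least 129-fold higher (edgeR adjusted p = 0.000395), and 7 of the 9 LILR relatives passed the test as higher, the other 2 having too few counts to be tested. Of 11 genes of the SIGLEC family with CD33, none reached a mean of 1 FPKM. CD33 was highest and SIGLEC1 eighth, and 5 of the 8 relatives passed as higher. All 3 relatives among the low-affinity and high-affinity Fc gamma receptor genes (FCGR1B, FCGR2C and FCGR3B) passed as higher, but these are near-identical copies of FCGR1A, FCGR2A with FCGR2B, and FCGR3A, and the authors' counting could have divided reads among them; the same holds within the LILR and SIGLEC clusters.

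The MS4A genes encode small membrane proteins with 4 passes through the membrane that lie together on chromosome 11, and the family split in this comparison. MS4A6A had 15.7, 15 and 4.54 CPM in YAPi_Activin, against 0.205 and 0.184 CPM in GiWi, and was 61.6-fold higher. MS4A7 had 8.35, 7.66 and 3.46 CPM in YAPi_Activin, against 0.0373 and 0 CPM in GiWi, a ratio of 348 (counting interval 96 to 2880). MS4A4A had 3.23, 3.48 and 1.19 CPM in YAPi_Activin, against 0.0187 and 0 CPM in GiWi, a ratio of 282 (counting interval 50.3 to 11200). These 3 are family members that macrophages and monocytes express. Of the 9 relatives, 2 passed as higher, 1 did not pass and 6 had too few counts. The 2 were MS4A8 and MS4A14 (edgeR adjusted p = 0.000664 and 0.0451). Among the 6 were MS4A1, the CD20 gene of B cells, and MS4A2, the Fc epsilon receptor chain of mast cells. Both had 0 counts in all 3 YAPi_Activin libraries, which allows up to 0.0231 CPM. Over all 51 relatives in the table, 29 were tested, of which 23 were higher, 3 were lower and 3 did not pass (18 to 24 higher with 1 library left out). TREM1, an activating receptor of myeloid cells, had 6.92, 6.71 and 7.36 CPM in YAPi_Activin, against 0.858 and 1.03 CPM in GiWi (log2 fold change 2.88 ± 0.15, edgeR adjusted p = 0.00011). CLEC5A, a lectin that signals through TYROBP, had 2.00, 1.6 and 1.56 CPM in YAPi_Activin, against 0 CPM in both GiWi libraries, at least 60.8-fold higher (edgeR adjusted p = 0.000346). Apart from LILRA3, TREM1 and CLEC5A, the relatives named here were chosen after their values were seen.

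**Figure D2:**
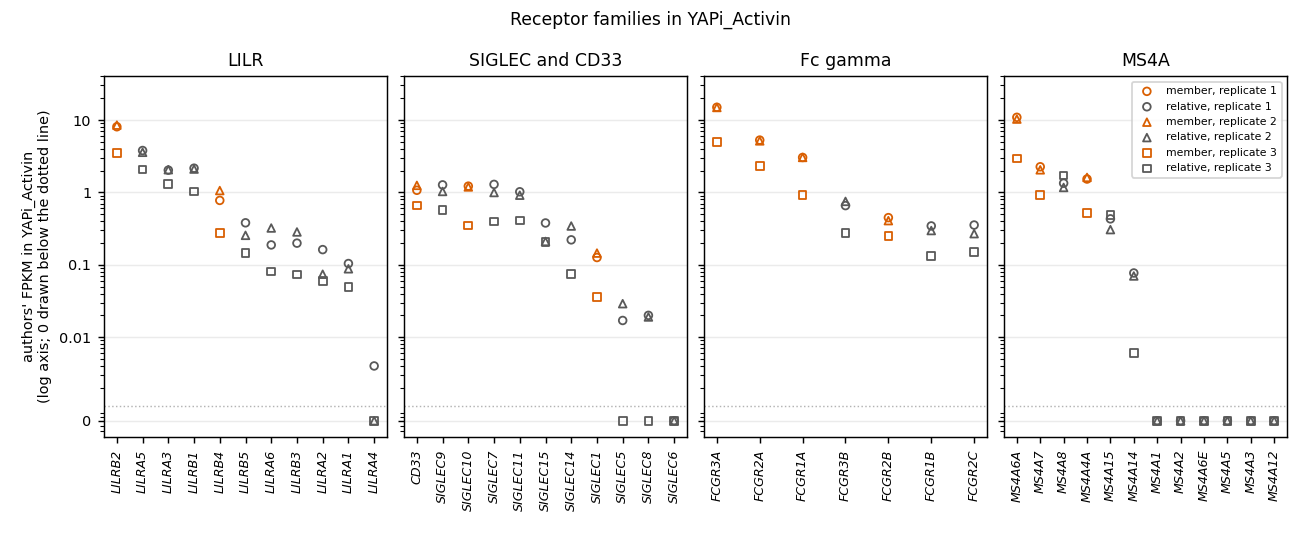
The authors' FPKM in the 3 YAPi_Activin libraries (log axis) for the LILR, SIGLEC, Fc gamma and MS4A families, ordered by mean, with genes of the 44 in orange and their relatives in grey. LILRB2, CD33, FCGR3A and MS4A6A lead their families, and 6 of the 12 MS4A genes stand at 0 in all 3 libraries.

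Pan-leukocyte and cytoskeletal genes are shared by many blood cells. LAPTM5, a lysosomal membrane protein of blood cells, had 55.9, 60.8 and 22.7 CPM in YAPi_Activin, against 0.187 and 0.174 CPM in GiWi, and was 262-fold higher. AIF1, the actin-binding protein also known as IBA1, had 12.9, 12.2 and 5.03 CPM in YAPi_Activin, against 1.88 and 2.24 CPM in GiWi, and was 4.97-fold higher. CORO1A, an actin regulator of leukocytes, had 13.1, 14.1 and 8.57 CPM in YAPi_Activin, against 5.43 and 5.78 CPM in GiWi, and was 2.15-fold higher. AIF1 and CORO1A thus had a clear level in GiWi that LAPTM5 lacked, and the count table lists AIF1 in 6 copies and LST1 in 8, between which reads could be divided. PTPRC, the CD45 phosphatase carried by nearly all white blood cells, was 143-fold higher at 12.7, 11.4 and 3.80 CPM in YAPi_Activin, against 0.0746 and 0.058 CPM in GiWi. The tetraspanin CD53 had a ratio of 858 (counting interval 154 to 33900), NCKAP1L, a leukocyte subunit of the actin-regulating WAVE complex, was 228-fold higher, PLEK, the protein kinase C substrate pleckstrin, 144-fold, LST1, a small MHC-region membrane protein, 23.1-fold, and LCP1, the actin bundler L-plastin, 13.3-fold.

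Effectors and transcription factors closed the set. CYBB, the catalytic subunit of the phagocyte NADPH oxidase, had 32.0, 32.9 and 13.3 CPM in YAPi_Activin, against 0.112 and 0.135 CPM in GiWi, and was 215-fold higher. RNASE6, an antimicrobial ribonuclease, had 9.87, 9.41 and 4.35 CPM in YAPi_Activin, against 0.0187 and 0.0387 CPM in GiWi, a ratio of 281 (counting interval 95.9 to 1370). SPI1, which encodes PU.1, had 10.3, 11.6 and 4.69 CPM in YAPi_Activin, against 0.112 and 0.0966 CPM in GiWi, and was 86-fold higher. In all 3, replicate 3 was the lowest YAPi_Activin library. IKZF1, a lymphoid and myeloid zinc finger factor, was 13.7-fold higher at 3.18, 2.93 and 1.19 CPM in YAPi_Activin, against 0.149 and 0.213 CPM in GiWi.

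RUNX1, a factor required for definitive blood formation, did not share this pattern. It had 71.8, 73.0 and 94.5 CPM in YAPi_Activin, against 58.1 and 61.0 CPM in GiWi (hg19 chr21:36160098-36260987, minus strand), a 1.33-fold difference that shrank to 1.17-fold when libraries were scaled by their size alone. It was the only one of the 44 genes that was both abundant in GiWi and highest in replicate 3 of YAPi_Activin.

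The 3 YAPi_Activin libraries differed in their macrophage genes in one direction. Replicates 1 and 2 were within 25% of each other for 43 of the 44 genes, with a median log2 difference of 0.01 and LILRB4 as the exception. Replicate 3 was the lowest of the 3 for 41 genes, below 50% of the mean of the other two for 32, and between 25% and 45% for 31. The median gene stood at 39.5% (log2 -1.34), whereas the median of all genes tested was a log2 of -0.004, and 956 of the 17634 genes tested (5.42%) were below 50%. The counts of 43, 41 and 31 genes have no share over all genes beside them here. This compares 1 library with 2 of the same group, so no test of a condition applies, and the intervals below cover counting error only.

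**Figure D3:**
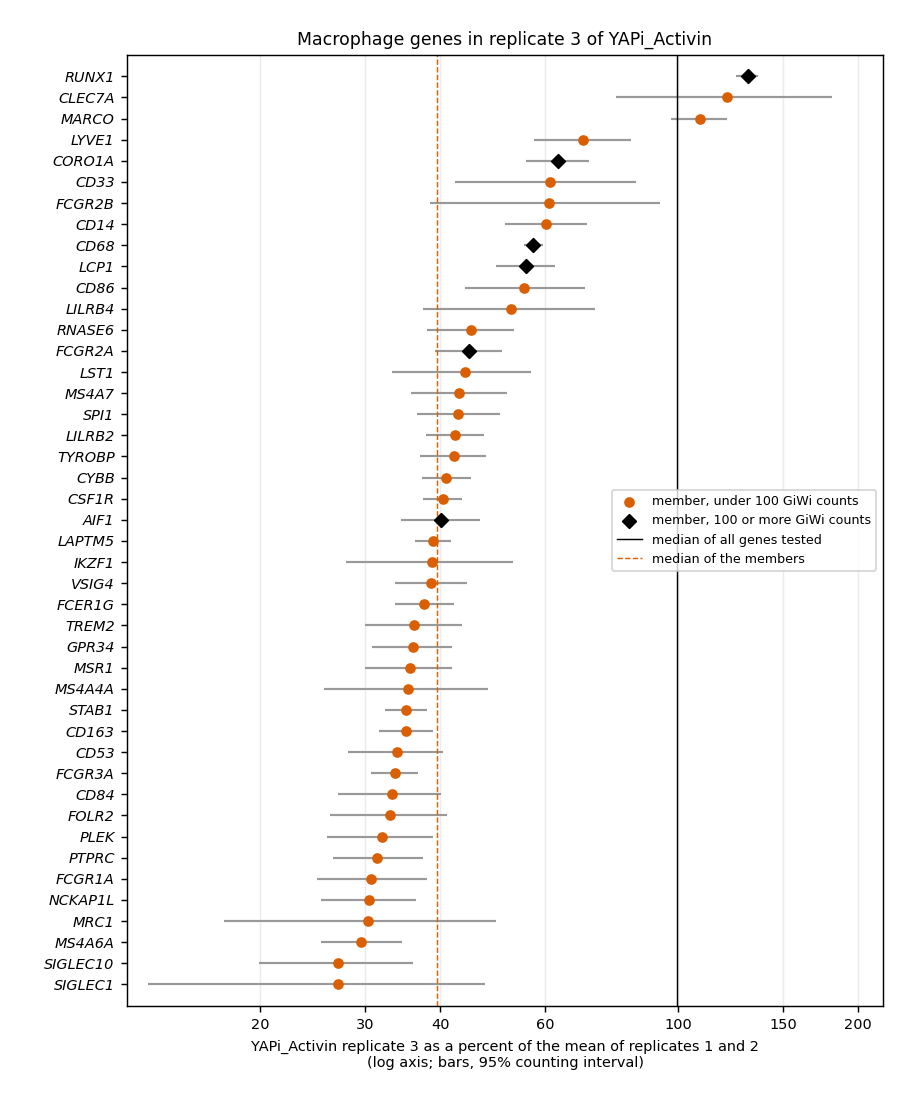
Level of each macrophage gene in YAPi_Activin replicate 3 as a percent of the mean of replicates 1 and 2 (log axis), with 95% counting intervals as bars, diamonds for genes with at least 100 GiWi counts, and vertical lines at the median of the 44 genes and of all genes tested. Most genes gather around 30 to 45%, and RUNX1, CLEC7A and MARCO lie to the right of the line for all genes.

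The 3 marker genes fell inside the main cluster. CSF1R stood at 40.5% (37.5 to 43.6), TYROBP at 42.2% (37.1 to 47.7) and CD163 at 35.1% (31.6 to 38.9). The lowest were SIGLEC1 and SIGLEC10, both at 27.0%, and MS4A6A at 29.5% (25.3 to 34.6). Exceptions were MARCO at 109% (97.3 to 121), CLEC7A at 121% (78.8 to 181) and RUNX1 at 131% (125 to 136). CLEC7A rests on few counts, and the other 9 scavenger and pattern receptors stood between 30.3% and 69.3%. Of the 36 genes with under 20 GiWi counts, the interquartile range was 33.5% to 43.3%, with a median of 38.1%. The 6 genes with at least 100 GiWi counts had a median of 56.5% and ranged from 40.1% for AIF1 to 131% for RUNX1, with CD68 at 57.3% (55.2 to 59.4) and CORO1A at 63.1% (55.7 to 71.0) between them. LYVE1, with 3 GiWi counts, stood at 69.3% (57.4 to 83.3).

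Other gene lists moved with replicate 3, and their part in these values was not tested. The 7 complement genes had a median log2 of -1.41 in replicate 3 against replicates 1 and 2, the 11 MHC class II genes -1.43, and the 10 cardiomyocyte genes -1.22, with all 10 lower. Summed levels of the cardiomyocyte genes were 4820, 4930 and 2240 CPM in YAPi_Activin, against 6330 and 6230 CPM in GiWi. The 8 fibroblast genes had a median log2 of 0.18 and the 17 endothelial genes, 14 of them with enough counts, -0.24. Among monocyte genes, S100A8 and S100A9, calcium-binding proteins of monocytes, neutrophils and squamous epithelium that were singled out after their values were seen, went the other way, S100A9 with 9.75, 9.85 and 57.9 CPM in YAPi_Activin, against 0.224 and 0.135 CPM in GiWi.

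Genes outside the 44 that belong to the same pathways were tested one by one, since they were not used in the selection of the 44. The lists were drawn up with earlier results of these data known, so their counts are not independent support. In 23 lists, 297 distinct genes were in the table and 203 had enough counts. Of these, 136 were higher in YAPi_Activin, 26 were lower and 41 did not pass by edgeR's test. Over all genes tested, 30.2% were higher and 26.9% lower. All p-values were adjusted over the 17634 genes tested, whose median log2 fold change was 0.01.

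The growth factors that CSF1R binds were not higher. CSF1 had 35.2, 35.9 and 44.9 CPM in YAPi_Activin, against 51.6 and 55.6 CPM in GiWi, and was lower with a log2 fold change of -0.47 ± 0.12 (SE; edgeR adjusted p = 0.0188). The call did not hold when GiWi replicate 1 or 2 was left out (adjusted p = 0.0711 and 0.119) and without YAPi_Activin replicate 1 or 2 (0.0553 and 0.0608), while the direction stayed. IL34, the second ligand, had 4.98, 4.36 and 4.44 CPM in YAPi_Activin, against 10.3 and 9.34 CPM in GiWi, and was lower at -1.09 ± 0.11 (edgeR adjusted p = 0.000718) in every alternative run. CSF2, the granulocyte and macrophage colony-stimulating factor, had 0.0213, 0 and 0.0247 CPM in YAPi_Activin, against 0 CPM in both GiWi libraries, and was not testable. KITLG, the ligand of the stem cell receptor KIT, was higher at 24.8, 25.5 and 29.5 CPM in YAPi_Activin, against 15.9 and 14.5 CPM in GiWi (0.80 ± 0.10, edgeR adjusted p = 0.00156). IL6 and TGFB1 were higher as well, at 2.63 ± 0.15 (adjusted p = 0.000136) and 0.96 ± 0.09 (adjusted p = 0.000562). Of 8 list members tested here, 4 were higher, 2 lower and 2 did not pass, with a median log2 fold change of 0.74, and 1 was lower when either GiWi library was left out.

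Downstream of the receptors, 21 of 24 signalling genes were higher, RAC2 was lower, and BTK and PLCG2 did not pass, with a median log2 fold change of 3.95. SYK, the kinase that binds phosphorylated TYROBP and FCER1G, had 12.2, 13 and 7.59 CPM in YAPi_Activin, against 0.056 and 0.0966 CPM in GiWi (7.12 ± 0.43, edgeR adjusted p = 0.000154). BLNK, an adaptor downstream of SYK, was higher at 5.81 ± 0.38 (edgeR adjusted p = 0.000195). RAC2, a blood-cell GTPase, had 9.16, 9.64 and 9.38 CPM in YAPi_Activin, against 16.0 and 17.7 CPM in GiWi (-0.85 ± 0.08, edgeR adjusted p = 0.000604). With 1 library left out, 20 to 22 genes of the list were higher.

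Leukocyte integrins and adhesion genes were mostly higher, with 7 of 8 passing and a median log2 fold change of 4.02. ITGB2, the CD18 chain, had 38.3, 41.1 and 16.7 CPM in YAPi_Activin, against 0.00933 and 0.029 CPM in GiWi (10.53 ± 0.90, edgeR adjusted p = 0.000455). ITGAM, its CD11b partner, had 3.81, 4.44 and 2.5 CPM in YAPi_Activin, against 0 and 0.0387 CPM in GiWi (7.37 ± 0.67, edgeR adjusted p = 0.000559). Of 16 tested toll-like receptor and inflammasome genes, 14 were higher, among them CASP1 (1.64 ± 0.12, edgeR adjusted p = 0.000312) and MYD88 (0.98 ± 0.10, edgeR adjusted p = 0.000717), with a median of 2.05; the count fell to 7 without GiWi replicate 1 and to 9 without GiWi replicate 2. The complement list had 6 of 6 tested genes higher (5 to 6 when 1 library was left out), the smallest p being that of C5AR1, the C5a receptor (5.43 ± 0.47, edgeR adjusted p = 0.000484). All 11 MHC class II genes were higher, against 5 when either GiWi library was left out and 8 with library-size scaling.

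**Figure D4:**
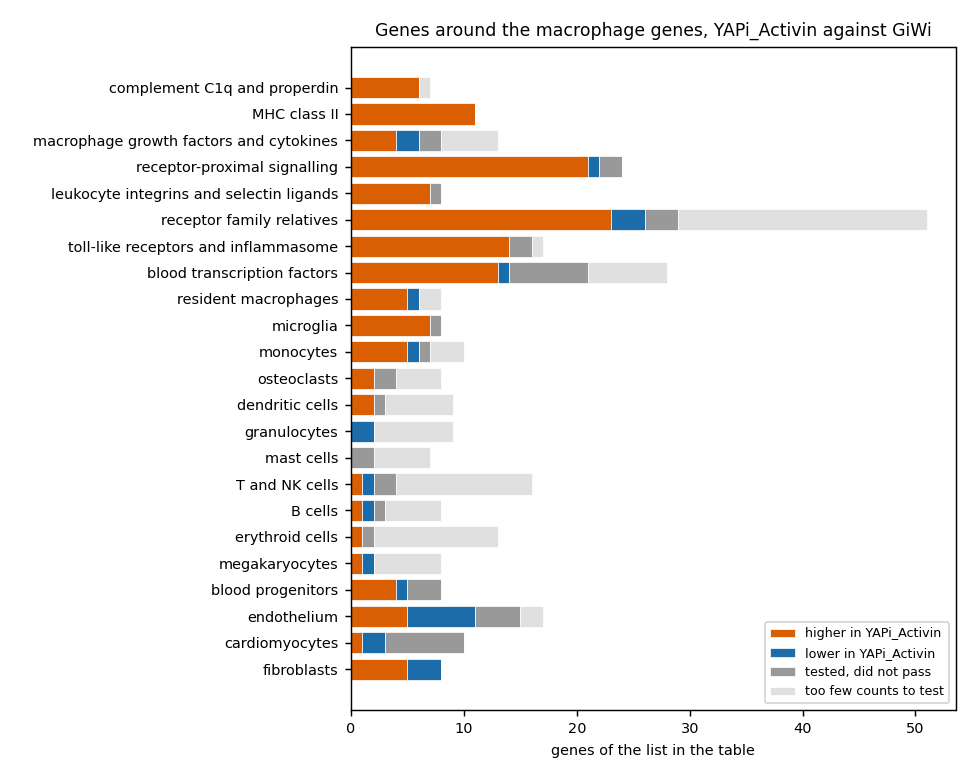
Number of genes in each of the 23 lists that were higher in YAPi_Activin than in GiWi, lower, tested without passing, or too low to test, by edgeR at an adjusted p under 0.05. Signalling, integrin, toll-like receptor and antigen presentation genes are mostly in the first class, whereas most granulocyte, T and NK, erythroid and megakaryocyte genes were too low to test.

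Among transcription factors of blood, LMO2 and ERG, both shared by progenitors and endothelium, were higher, while other factors of the list did not pass. LMO2 had 2.33, 2.5 and 2.58 CPM in YAPi_Activin, against 0.392 and 0.473 CPM in GiWi (2.52 ± 0.20, edgeR adjusted p = 0.000352). ERG had 29.5, 30.1 and 29.8 CPM in YAPi_Activin, against 10.8 and 11.7 CPM in GiWi (1.40 ± 0.06, edgeR adjusted p = 6.86e-05). In contrast to SPI1, neither was lowest in replicate 3. The other factors of the list that were higher did not share 1 pattern there. Against replicates 1 and 2, the higher factors ranged from a log2 of -2.56 for SPIB to 0.38 for IRF5, with a median of -0.04. TFEC (-1.45) and IRF8 (-1.21) were near SPI1 (-1.22). Of 21 factors tested, 13 were higher, 1 was lower and 7 did not pass, with a median of 1.40. The 7 included FLI1, TAL1, LYL1 and GATA2 (edgeR adjusted p = 0.144, 0.362, 0.689 and 0.583). GATA1, the erythroid and megakaryocyte factor, had 0 counts in all 5 libraries.

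Genes that separate kinds of macrophage were mostly higher, at levels that ranged widely. TIMD4, a phosphatidylserine receptor of resident macrophages, had 0.754, 0.893 and 0.334 CPM in YAPi_Activin, against 0 CPM in both GiWi libraries (at least 23.5-fold higher, edgeR adjusted p = 0.00401). HMOX1, which degrades the haem that CD163 brings in, had 43.1, 46.5 and 26.8 CPM in YAPi_Activin, against 3.21 and 3.19 CPM in GiWi (3.60 ± 0.29, edgeR adjusted p = 0.000358). IGF1, a growth factor that stromal cells also secrete, had 14.6, 13.9 and 28.7 CPM in YAPi_Activin, against 201 and 191 CPM in GiWi, and was lower (-3.37 ± 0.33, edgeR adjusted p = 0.000687). CX3CR1, the fractalkine receptor of microglia and resident macrophages, had 6.60, 7.06 and 3.18 CPM in YAPi_Activin, against 0.467 and 0.551 CPM in GiWi (3.47 ± 0.43, edgeR adjusted p = 0.00157). P2RY12, an ADP receptor of microglia, had 0.436, 0.917 and 0.148 CPM in YAPi_Activin, against 0.0373 and 0.0387 CPM in GiWi (3.62 ± 0.98, edgeR adjusted p = 0.0239), a call lost when GiWi replicate 1 or 2 was left out (adjusted p = 0.128 and 0.127). CCR2, the chemokine receptor of blood monocytes, was at or near 0 with 0.0213, 0.0235 and 0 CPM in YAPi_Activin, against 0 and 0.00966 CPM in GiWi. LYZ, lysozyme, had 15.9, 15.4 and 8.42 CPM in YAPi_Activin, against 1.05 and 1.33 CPM in GiWi (3.48 ± 0.36, edgeR adjusted p = 0.000809). By list, 5 of 6 tested resident macrophage genes, 7 of 8 microglial genes and 5 of 7 monocyte genes were higher, the last count being 2 when either GiWi library was left out; several of the microglial genes, such as OLFML3, are also expressed outside microglia.

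CD3E, MPO and PF4, defining genes of other blood cells, were at or near 0, while a few other genes of those lists passed the test. CD3E of T cells had 0 counts in all 5 libraries. MPO of granulocytes had 0.0213, 0 and 0.0989 CPM in YAPi_Activin, against 0 and 0.00966 CPM in GiWi, and PF4 of megakaryocytes had 0.0638, 0.188 and 0.185 CPM in YAPi_Activin, against 0.028 and 0 CPM in GiWi. None of these 3 had enough counts to be tested. Few genes of these lists could be tested at all: 2 of 9 granulocyte genes, 2 of 7 mast cell genes, 4 of 16 T and NK cell genes, 3 of 8 B cell genes, 2 of 13 erythroid genes and 2 of 8 megakaryocyte genes. Of these 15 tested genes, 4 were higher in YAPi_Activin, a share near the 30.2% over all genes tested. ALAS2, which starts haem synthesis in red cells, had 6.47, 6.57 and 1.82 CPM in YAPi_Activin, against 0.746 and 0.483 CPM in GiWi (3.01 ± 0.65, edgeR adjusted p = 0.0112), a call lost when GiWi replicate 1 or 2 was left out (adjusted p = 0.0658 and 0.0936). The others, all under 1 CPM in every library, were PAX5 of B cells (4.85 ± 0.71, edgeR adjusted p = 0.00272), PPBP of megakaryocytes (2.24 ± 0.44, edgeR adjusted p = 0.00791) and NKG7 of T and NK cells, which had no counts in GiWi and was at least 9.32-fold higher in YAPi_Activin (edgeR adjusted p = 0.00345). NKG7 had too few counts to be tested without YAPi_Activin replicate 1 or 2. A further 5 were lower, beside 26.9% over all genes tested, and 6 did not pass. The summed level of the T and NK cell list was 1.68, 1.34 and 2.60 CPM in YAPi_Activin, against 2.15 and 2.56 CPM in GiWi.

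CD34, carried by blood progenitors and endothelium, had 0.733, 0.693 and 4.25 CPM in YAPi_Activin, against 7.48 and 9.03 CPM in GiWi, and did not pass (log2 fold change -2.14 ± 0.79, edgeR adjusted p = 0.0622); it passed as lower without YAPi_Activin replicate 3 (-3.52, adjusted p = 2.12e-14) and with library-size scaling (-2.34, adjusted p = 0.0425). PECAM1, an adhesion molecule of endothelium that macrophages also carry, had 1.55, 2.05 and 0.668 CPM in YAPi_Activin, against 0.355 and 0.251 CPM in GiWi, and was higher (2.22 ± 0.55, edgeR adjusted p = 0.0171), a call lost when GiWi replicate 1 or 2 was left out (adjusted p = 0.0823 and 0.121). Of 15 tested endothelial genes 5 were higher, 6 were lower and 4 did not pass, beside 30.2% higher and 26.9% lower over all genes tested, with a median log2 fold change of -0.22 and with 2 higher and 3 lower when either GiWi library was left out. Of 10 cardiomyocyte genes, 1 was higher, 2 were lower and 7 did not pass; without YAPi_Activin replicate 3, 2 were higher and 7 lower, and without any 1 of the other libraries 0 were higher and 1 to 2 lower. Of 8 blood progenitor genes, 4 were higher, the smallest p being that of MECOM (2.42 ± 0.13, edgeR adjusted p = 0.000105), 1 was lower and 3 did not pass. Of 4 tested osteoclast genes, MMP9, a secreted protease that macrophages also make (5.76 ± 0.28, edgeR adjusted p = 7.69e-05), and TNFRSF11A, the receptor RANK (5.37 ± 0.59, edgeR adjusted p = 0.000972), were higher, and of 3 tested dendritic cell genes 2 were higher, none of them when either GiWi library was left out.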

How the data were processed

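Per the labels' protocols, polyA RNA of 5 libraries (YAPi_Activin, 3; GiWi, 2) was made into stranded mRNA libraries and read on a HiSeq. Build hg19 and the tools STAR 2.5.1, HOMER, FastQC 0.11.5 and edgeR 3.16.1 stand in the submitters' processing notes without their roles, and whether counting used strand is not stated there. The authors deposited exon counts per gene, handled here like an estimated count because 34.6% are not whole (all are multiples of 0.5) and rounded before testing. The authors also deposited FPKM values, which were used for levels between genes. Both tables hold 27139 symbols and 3 emptied lines; for 25 of the 44 genes the tables list different transcripts, so they were joined by symbol.

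The comparison was YAPi_Activin against GiWi with edgeR's quasi-likelihood test (edgeR 4.0.16, R 4.3.3; TMM factors; filterByExpr, minimum count 10, minimum total 15; Benjamini-Hochberg adjustment over 17634 genes). Members and lists were chosen with earlier results of these data known, and named genes outside the 44 were the 3 smallest p per list with some fixed by name and 10 of like pattern. Some genes that this rule selects are not reported here and remain in the counts. CPM are unrounded counts over TMM-scaled library sizes, and folds are ratios of pooled counts over pooled library sizes. Where GiWi had under 1 count, the fold was set against 3 counts over the group; with 1 to 3 counts an exact 95% interval is given. Intervals and floors cover counting error only. The edgeR step was tested on simulated data. Alternatives were DESeq2 1.42.0, scaling by RLE factors or by library size alone, testing without a filter or with 1 CPM required in 2 libraries, limma 3.58.1 on log2(FPKM + 1) and log2(FPKM + 0.1), each library left out, and a replicate block. Promoter windows came from RefSeq (GRCh38.p14). Figures were drawn with matplotlib 3.10.9.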

Additional observations from a re-analysis of the deposited data

How the results depend on the processing

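Leaving out 1 library moved the number of genes changed between 5909 and 13115 (10065 with all 5), the lowest without GiWi replicate 2 and the highest without YAPi_Activin replicate 3, and the number of list genes that were lower between 17 and 39 (26 with all 5); the list genes that were higher stayed between 104 and 148 (136 with all 5). Other scalings and tools gave 9118 to 10964 changed genes. The split of calls depended on scaling: 52.9% of changed genes were higher with TMM factors, 35.8% with library size alone, which moved the median log2 fold change of all genes to -0.18, and 38.0% and 39.7% with limma on log2(FPKM + 1) and log2(FPKM + 0.1). In the authors' FPKM the summed level of the 44 genes averaged 266.8 in YAPi_Activin, which is another unit than the 689.2 CPM. The median of replicate 3 against replicates 1 and 2 stayed between a log2 of -1.31 and -1.39 in the other 2 scalings, the authors' FPKM and against either replicate alone; a minimum of 100 counts left out none of the 44 genes. Whether the shared replicate numbers pair the samples is not settled. Deviations of replicates 1 and 2 correlated at r = 0.065 between the groups, across 17634 genes. YAPi_Activin replicates 1 and 2 differed little (chi-square per degree of freedom 2.13), so a low correlation cannot exclude pairing. With a replicate block 13576 genes changed. The cause of these shifts was not tested. Depth limits the folds of the 20 genes with at most 3 GiWi counts, which are bounds or carry wide counting intervals.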
